A study of Mus musculus with 12 samples.

Results

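The binding sites of Meis1 in the mouse ventricle were described from 1 peak list, which the authors made by chromatin immunoprecipitation and sequencing. It combined 3 Meis1 precipitates and their 3 input libraries, and all of its 30534 peaks were used, of 52818 peaks in the series. The other 22284 peaks belong to Hoxb13, a Hox protein mapped in the same study. The tissue was the whole ventricle at postnatal day 15, from mice of the outbred CD-1 strain, with no genotype change or treatment named. The Meis1 precipitates were made with an antibody to Meis1, and the inputs were 1% of the sheared chromatin, taken before the antibody was added. Whole ventricle holds cardiomyocytes, fibroblasts, endothelial cells, mural cells and leukocytes, and a peak does not show which of them it came from. The sex of the hearts is not given in the labels used here. The list gives 1 value per peak over the 3 libraries and no value per library, so no spread between hearts and no test could be computed, and read depth is unknown. Intervals below cover counting error over peaks, genes or promoters only.

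Meis1 belongs to the TALE class of homeobox proteins, transcription factors whose homeodomain carries an extra loop of amino acids. TALE proteins bind DNA in pairs or larger complexes, and Meis proteins commonly pair with Pbx proteins, another TALE family, or with Hox proteins. The core DNA site of Meis is TGACAG, and Pbx next to Meis reads a longer composite of which TGATTGACA was searched here. In the mouse heart Meis1 is known as a regulator of the time after birth when cardiomyocytes leave the cell cycle, and the cyclin-dependent kinase inhibitor genes are among its described targets.

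The composite was spelled out at the promoters of named genes under Meis1 peaks. The stretches below come from the 6 strongest peaks of the promoter class whose overlapping RefSeq promoter window (mm10, GRCm38.p6) holds the composite. Each is shown with 10 bases on either side, 5′ to 3′ on the strand that reads the composite, and capitals mark the composite and any core site.
Sun2 (chr15:79742534-79742562, minus strand, peak strength 92.5): CTGTCAgcgtTGATTGACAGgcgcacaca
C630043F03Rik (chr4:72201226-72201254, minus strand, peak strength 85.8): cacgttacttTGATTGACAGctcggcccg
Zfp622 (chr15:25984253-25984281, plus strand, peak strength 75.1): cgcccaccttTGATTGACAGggcggatcc
Zfp281 (chr1:136624841-136624869, plus strand, peak strength 64.8): accgcccgctTGATTGACAGgctagccag
Mapk7 (chr11:61494346-61494374, minus strand, peak strength 64.6): cgcgcgcgcgTGATTGACAagggcgcggt
Cdkn1b (chr6:134920393-134920421, minus strand, peak strength 61.8): aagaagaagaTGATTGACActgcaagtct

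In all 6 the composite lay within 20 bp of the peak's summit, at 0 bp for Mapk7, 2 bp for Cdkn1b, 7 bp for Sun2, 13 bp for Zfp622, 15 bp for Zfp281 and 20 bp for C630043F03Rik. Cdkn1b encodes p27, an inhibitor of cyclin-dependent kinases, and its composite lies just inside the gene, from base 3 on, and reads on the strand opposite to the gene. Sun2 encodes a protein of the inner nuclear membrane that links the nucleus to the cytoskeleton, and Mapk7 encodes the kinase ERK5. Zfp622 and Zfp281 encode zinc finger proteins. In 4 of the 6, at Sun2, C630043F03Rik, Zfp622 and Zfp281, the composite ran on into a complete core site. At Sun2 a second core site on the other strand lay just before it.

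The strongest promoter peaks overlapping a RefSeq window are shown because they sit at genes of the heart and skeletal muscle. The 250 bases upstream of the start are printed in the direction of the gene, with core sites in capitals (CTGTCA is the core on the other strand).
Cacna1c (chr6:119196410-119196659, minus strand): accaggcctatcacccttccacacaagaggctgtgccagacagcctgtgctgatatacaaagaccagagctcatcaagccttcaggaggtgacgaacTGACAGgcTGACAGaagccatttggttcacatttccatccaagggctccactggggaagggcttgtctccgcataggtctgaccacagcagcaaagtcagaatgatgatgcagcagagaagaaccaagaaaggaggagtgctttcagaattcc
Lrrc10 (chr10:117045091-117045340, plus strand): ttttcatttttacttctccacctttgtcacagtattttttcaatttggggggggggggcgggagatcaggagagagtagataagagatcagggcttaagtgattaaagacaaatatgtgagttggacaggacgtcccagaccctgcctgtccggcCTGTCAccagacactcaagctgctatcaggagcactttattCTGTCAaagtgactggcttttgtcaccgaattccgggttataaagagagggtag
Apobec2 (chr17:48432729-48432978, minus strand): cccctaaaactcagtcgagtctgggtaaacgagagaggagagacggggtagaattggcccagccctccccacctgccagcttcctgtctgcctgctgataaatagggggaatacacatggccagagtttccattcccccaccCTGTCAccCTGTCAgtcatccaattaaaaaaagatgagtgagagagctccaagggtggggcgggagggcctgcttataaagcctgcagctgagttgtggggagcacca

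Cacna1c encodes the pore subunit of the cardiac L-type calcium channel, Lrrc10 a leucine-rich repeat protein of cardiomyocytes and Apobec2 a muscle protein of the deaminase family. None of the 3 stretches held the composite, and each held 2 core sites upstream of the start. At Apobec2 these 2 sites lay 95 and 103 bases upstream, outside the peak (chr17:48432577-48432800). The nearest core site in the whole window of 300 bases lay 24.5 bp from the summit at Cacna1c, 13.5 bp at Lrrc10 and 5.5 bp at Apobec2. At Apobec2 this nearest site is inside the gene and not among the bases printed. The summit itself lay 175 bases upstream of the start at Cacna1c and 79 bases upstream at Lrrc10, and 39 bases inside the gene at Apobec2.

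Across promoters, core sites were more frequent where a Meis1 peak lay and more frequent still under stronger peaks. Of 32817 RefSeq windows, each from 250 bases before to 50 after a start site, 1366 (4.16%) overlapped a Meis1 peak by at least 1 bp. TGACAG, on either strand, was present in 43.6% of the windows with a peak (exact binomial 95% interval 40.9 to 46.2) and in 18.1% of those without (17.7 to 18.5), 2.40 times as often. Its share of all windows was 19.2%. With these windows put in 4 equal groups by peak strength, from the strongest to the weakest, the share with the core was 60.8%, 46.3%, 38.2% and 29.0%. The composite was present in 40 windows with a peak, or 2.93% (2.10 to 3.97), in 0.324% of windows without one and in 0.433% of all windows, and 25 of the windows with it also held the core. Neighbouring windows can share a peak or sequence, so the intervals treat as separate some windows that are not.

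**Figure D1:**
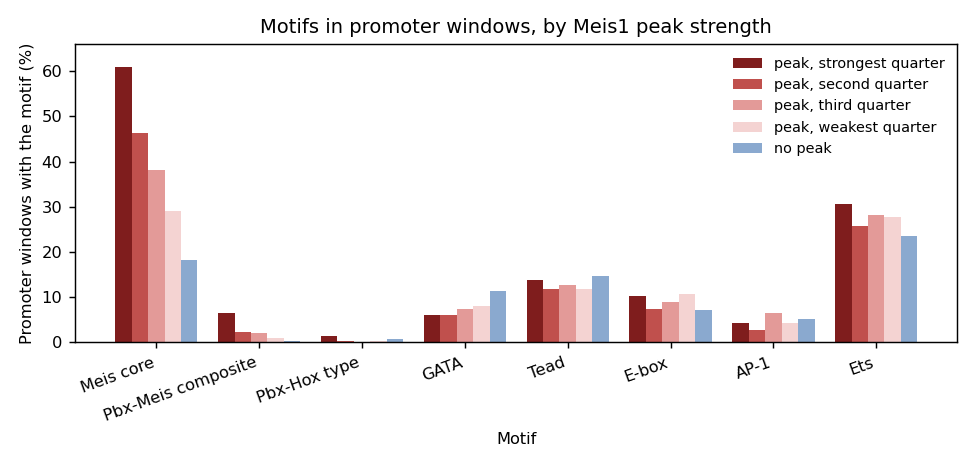
Share of RefSeq promoter windows (y axis, percent) that hold each of 8 motifs (x axis), for windows under Meis1 peaks split into 4 equal groups by peak strength and for windows with no peak. The Meis core goes from 60.8% in the strongest group to 29.0% in the weakest, against 18.1% without a peak. GATA and Tead motifs are less frequent under peaks than elsewhere, in shares not adjusted for GC content.

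Motifs of other factor families differed less between windows with and without a peak. On either strand, AGATAA, the site of GATA factors, was present in 6.95% of windows with a peak, 11.4% of those without and 11.2% of all. CATTCC, the Tead motif, was in 12.5%, 14.8% and 14.7%, and TGACTCA, the AP-1 motif, in 4.47%, 5.24% and 5.20%. CACGTG, an E-box, was in 9.30%, 7.06% and 7.15%, and GGAAGT, an Ets motif, in 28.1%, 23.6% and 23.8%. TGATTGAT, the form described for Pbx with Hox proteins, was in 0.512%, 0.757% and 0.747%, and shares its first 7 letters with the composite. In windows that held the summit, the nearest core site was a median of 16.5 bp from it (513 windows) and the nearest composite 15 bp (37 windows). For GATA, Tead, E-box, AP-1 and Ets motifs the median was 65 to 93 bp. For TGATTGAT it was 24.5 bp, over 6 windows. A core site lay within 25 bp of the summit in 69.8% of the windows that held both, and a Tead motif in 21.2%.

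Windows with a peak were richer in G and C, with a mean of 59.6% against 53.5% without a peak. The windows were therefore split into 4 groups of GC content. In the lowest group the core was in 22.0% of the 91 windows with a peak and 19.8% of the rest, and these values are close. In the next groups it was in 46.7% against 22.3%, 47.3% against 18.8%, and 42.6% against 11.1%. The share of windows with a peak went from 1.11% in the lowest GC group to 6.97% in the highest. The composite and the motifs of other families were not split this way, so their shares above are not adjusted for GC content.

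Meis1 peaks lay mostly away from gene starts, and the few at gene starts were stronger than the rest. By the authors' annotation 6.73% of the peaks were in the promoter class (within 1000 bp of a start site), 33.4% in introns and 54.9% between genes. Splitting introns gave 3088 peaks in first introns (10.1%) and 7120 in later ones (23.3%). Strength, the authors' deposited signal value per peak, has no stated scale and was used within the list only. It had a median of 18.7 over all peaks, a 90th percentile of 43.7 and a 99th percentile of 169. By class the median strength was 23.6 in promoters (order-statistic 95% interval 23.0 to 24.1), 20.3 in first introns, 19.2 in later introns and 18.02 between genes (17.96 to 18.08). The strongest 10% of the list, 3053 peaks with a strength of at least 43.7, took in 16.9% of the promoter peaks, 13.8% of the first intron peaks and 13.1% of the later intron peaks. Of the intergenic peaks 6.98% were among them. By number the strongest 10% still lay mostly outside promoters, with 1363 peaks in introns, 1171 between genes and 347 in promoters.

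**Figure D2:**
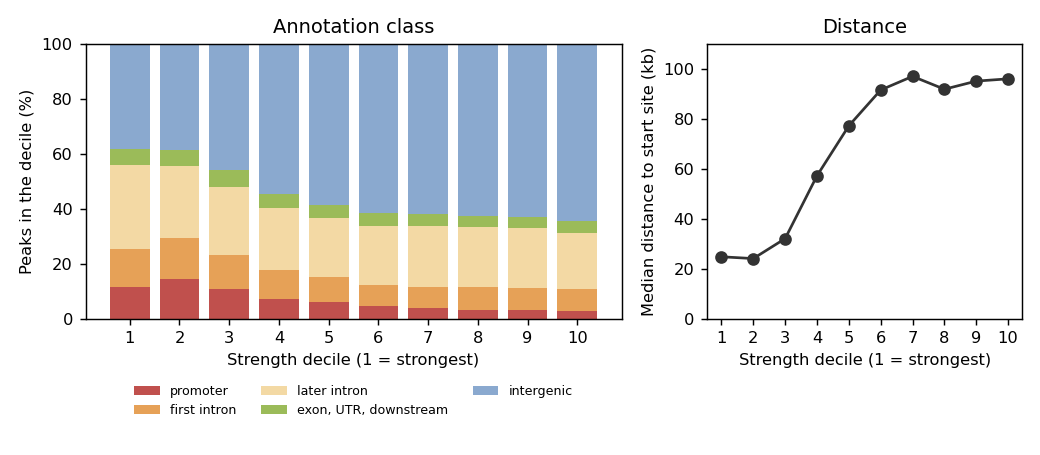
Left, the share of peaks in each annotation class (y axis, percent) for the 10 strength deciles of the Meis1 list (x axis, 1 is the strongest). Right, the median distance to the nearest start site in kb for the same deciles, which is 24.8 and 24.1 kb in the first 2 deciles and above 90 kb from the sixth on.

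Within the list, composition changed over the first 6 deciles of strength and little after that. The intergenic share was 38.3% in the strongest decile, 38.6% in the next, 54.6% in the fourth and 61.5% in the sixth, and between 61.8% and 64.4% in the last 4. First introns held 14.0% of the strongest decile and 8.06% of the weakest, and later introns 30.6% and 20.1%. Promoters were most frequent in the second decile (14.6%). Over all peaks, strength and distance from a start site had a Spearman correlation of -0.26 (n = 30534 peaks of the same 3 libraries, given as a description).

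Distance to the nearest start site ran from 0 to 2199 kb. Of all peaks 19.8% lay within 10 kb of a start site, 46.9% within 50 kb and 61.0% within 100 kb. Beyond 500 kb there were 3298 peaks (10.8%), and 1.49% of these were among the strongest 10% of the list, against 18.2% of the peaks up to 1 kb off the start and 13.4% of those from 10 to 50 kb. In the promoter class 816 peaks covered the start site itself, 717 lay upstream and 523 downstream. Their median strengths were 23.7, 24.6 and 21.3. Of the peaks off the start site 46.5% lay upstream of it.

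The 5 strongest peaks of the promoter class were at Cacna1c (strength 290.2, 58 bp upstream of the start), Lrrc10 (286, on the start), Cacnb2 (285, 785 bp upstream), Apobec2 (276, on the start) and Tfpi (257, 626 bp upstream). Cacnb2 encodes the beta subunit that partners the L-type calcium channel pore, and Tfpi an inhibitor of the clotting cascade. They ranked 64, 68, 70, 86 and 99 in the list, so every stronger peak lay outside promoters. The strongest peak in a 5′ UTR was nearest to the microRNA gene Mir6943 (264.5, 2.37 kb away). In the other classes the strongest peaks were in exon 6 of 16 at Bpifb1 (323), in intron 16 of 31 at Plcb2 (434), in a 3′ UTR near Dym (229), just downstream of a gene near the potassium channel gene Kcnj5 (279.8) and between genes near Lclat1 (552). The class describes the transcript a peak lies in and the distance the nearest start site, and these can belong to different transcripts or genes.

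Meis1 peaks were found on every autosome and were rare on chromosome X. The 19 autosomes held 12.3 peaks per Mb, from 9.52 on chromosome 7 to 14.7 on chromosome 16, a 1.54-fold range. Chromosome X had 206 peaks, 1.21 per Mb, which was 9.79% of the autosomal density (95% interval 8.50 to 11.2) or 10.2-fold lower. Chromosome Y had 5 peaks. Length here is the position of the last gene or peak on a chromosome, since no genome was used. Of the protein-coding genes on X 125 (12.9%) had a peak, against 39.8% on the autosomes, and 13 of 1220 promoter windows on X (1.07%) overlapped a peak, against 4.31%. The core site was in 16.4% of the X windows and 19.0% of the autosomal windows. The Hoxb13 list, from other precipitates of the study, had 1.20 peaks per Mb on X, 7.51-fold lower than its autosomal 8.97. The cause was not tested.

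**Figure D3:**
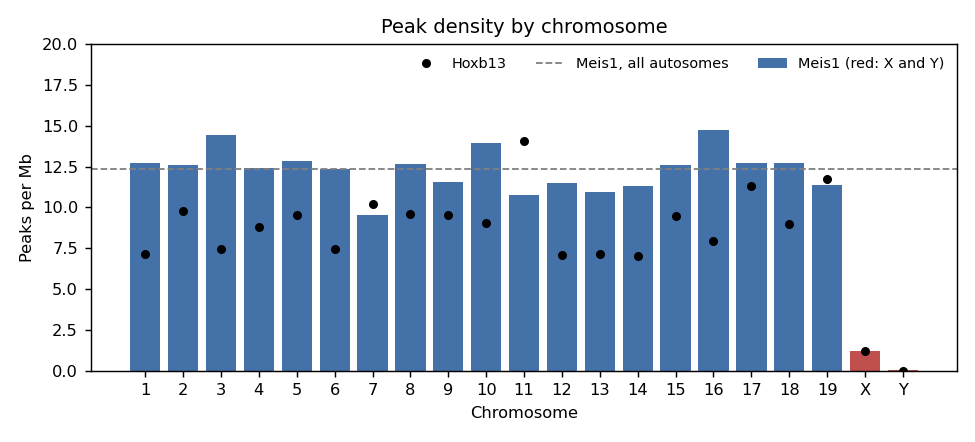
Peaks per Mb (y axis) on each chromosome (x axis), as bars for Meis1 and black points for Hoxb13, with the autosomal Meis1 value of 12.3 as a dashed line. Autosomes lie between 9.52 and 14.7 for Meis1, and X has 1.21 for Meis1 and 1.20 for Hoxb13.

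The peaks that were on X were not weak ones. Their median strength was 21.5, against 18.6 on the autosomes, and 14.6% of them were among the strongest 10% of the list, against 9.97%. Their classes were 9.22% promoter (19 peaks), 30.6% intron and 54.9% intergenic. The strongest lay on the start of Sh3kbp1 (strength 249), which encodes an adaptor of receptor endocytosis. The next in strength, named after their values were seen, were an intronic peak of Diaph2 (192), a formin gene, an intronic peak of Fgf13 (168), a second Diaph2 peak (163) and a peak 41.5 kb from Mid1ip1 (160.4).

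Among the autosomes, chromosome 11 combined few peaks with strong ones. It had 10.7 peaks per Mb but the highest autosomal median strength (20.5) and 15.3% of its peaks in the strongest 10%. Promoters held 11.99% of its peaks. On chromosome 3, which had 14.4 peaks per Mb, the median strength was 18.2, 7.67% were in the strongest 10% and 4.77% were promoter peaks. Across the 19 autosomes the density of peaks and of protein-coding genes had a Spearman correlation of -0.34, a description over chromosomes of the same libraries.

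The strongest peak of each autosome lay outside the promoter class. Besides the sites at Lclat1, Myl2, En1, Mmp13, Plcb2, Arrdc3, Gm1653 and A330074K22Rik, these were assigned to Sptbn1 (chromosome 11, strength 387, intron), Wif1 (chromosome 10, 384, 69.9 kb from the start), Pnrc1 (chromosome 4, 373, 12.7 kb) and Frmd6 (chromosome 12, 347, 171 kb). Wif1 encodes a secreted inhibitor of Wnt ligands, and Sptbn1 encodes a beta spectrin of the membrane skeleton. The others were Olfr1505 (chromosome 19, 332), Kcng2 (chromosome 18, 329.5, intron), Eef2kmt (chromosome 16, 325), 5430440P10Rik (chromosome 14, 302), Asb15 (chromosome 6, 297, intron), Fam135b (chromosome 15, 286) and Galnt18 (chromosome 7, 280.4). On Y the strongest peak had a strength of 22.8 and was nearest to Gm20815, at 309 kb.

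Some peaks lay in close groups, and the largest groups were made of weak peaks. With a cluster defined as at least 3 peaks whose neighbouring summits lie at most 10 kb apart, 2700 peaks (8.84%, 95% interval 8.53 to 9.17) fell into 773 clusters with a median span of 10.2 kb. Of the clusters 562 had 3 peaks and 40 had 6 or more. Clustered peaks had a median strength of 20.0 and 15.9% of them were in the strongest 10%, against 18.6 and 9.43% outside clusters. Introns held 39.8% of them, against 32.8% outside. Promoters held 6.48% and 6.76%. In 480 of the clusters (62.1%) no peak was in the strongest 10%.

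The 5 clusters with most peaks were at C130026I21Rik on chromosome 1 (21 peaks over 61.7 kb), at Prl2c2 and Prl2c3 on chromosome 13 (19 over 56.7 kb), and, with 10 peaks each, at Sp110, at C920009B18Rik and H60b, and at 1600014C10Rik. None of their peaks was in the strongest 10%, and the strongest of each cluster had a strength between 26.9 and 42.8. Prl2c2 and Prl2c3 are members of a prolactin family of near-identical copies. How reads were placed among such copies is not given in the sources used here, so the peak count there is uncertain. Whether the other large clusters lie in repeated sequence was not examined, so their peak counts are uncertain too.

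**Figure D4:**
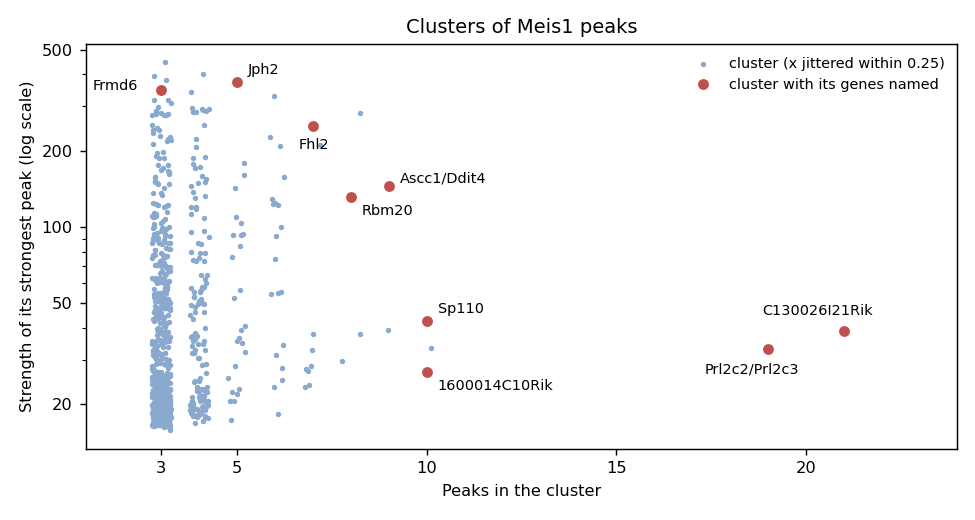
Each point is a cluster of Meis1 peaks, with its number of peaks (x axis) and the strength of its strongest peak (y axis, log scale). The clusters with 10 or more peaks stay under a strength of 43, and the clusters at Fhl2, Rbm20 and Ascc1/Ddit4 join 7 to 9 peaks with a strongest peak between 132 and 250.5.

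Other clusters held several strong peaks. Ranked by their number of peaks in the strongest 10%, a ranking chosen after the values were seen, the first were at Fhl2 (7 peaks, 4 of them strong), Dbh and Sardh (6, 4 strong), Ascc1 and Ddit4 (9, 4 strong) and Rbm20 (8, 4 strong). Fhl2 encodes a LIM protein abundant in heart, Rbm20 the splicing regulator of titin and Ddit4 an inhibitor of mTOR signalling. In all, 23 clusters held 3 or more strong peaks. At Rbm20 the 8 clustered peaks spanned 21.5 kb of the first intron, with strengths from 16.2 to 132. The cluster of 5 peaks at Jph2, which encodes the junctophilin that holds the sarcoplasmic reticulum to the surface membrane, lay in later introns and reached 375. Those at Abcc8 and Kcnj11, which encode an ATP-sensitive potassium channel (7 peaks, 211), and at Ankrd1, a cardiac ankyrin repeat gene (4 peaks, 187), each had 3 strong peaks. So did, among others, those at Frmd6 (3 peaks, 347), Kcng2 (6, 329.5), Plekhh1 (4, 283), 4930429H19Rik (3, 247), Foxo6 (3, 168), Pdzd2 (5, 143) and N6amt1 (3, 122.8).

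Of 21883 protein-coding genes 8359 (38.2%) had at least 1 Meis1 peak assigned as their nearest gene. In 4252 of them there was 1 peak, and in 415 there were 10 or more. These 415 genes took 31.3% of the peaks assigned to protein-coding genes. Nearest-gene assignment gives more peaks to a gene that stands alone. Locus size, the gene body with 0.5 of the gap to each neighbouring gene, had a median of 975 kb in the 415 genes and 46.5 kb in all genes. The share of genes with a peak went from 17.0% in the lowest of 4 equal groups of locus size to 67.6% in the highest, whereas peaks per Mb of locus went from 16.9 to 8.45. A gene had a promoter peak in 1785 cases (8.16%), a peak within 10 kb of the start in 4270 (19.5%) and a peak of the strongest 10% in 1978 (9.04%). The lists of genes below are read against these 4 shares.

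The genes with most Meis1 peaks mostly encode cell adhesion and guidance proteins known from neurons (Nudt12, a nucleotide hydrolase, does not), and their peaks were many but weak. The first 10 were Lrrc4c (68 peaks), Adgrl3 (67), Ncam2 (66), Epha6 (60), Cdh9 (58), Efna5 (54), Lsamp and Nudt12 (53 each), Csmd3 (52) and Cntnap2 (51). Their loci measured 1812 to 4218 kb. Of the Lrrc4c peaks 64 lay more than 100 kb from the start site, and their median strength was 17.8. Adgrl3 and Ncam2 had medians of 17.7 and 17.2, and no peak of Ncam2, Epha6, Cdh9 or Nudt12 was in the strongest 10%. Efna5, which encodes an ephrin ligand, differed with 5 strong peaks, one of them at 291 in its first intron.

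Counting strong peaks brought up another set of genes, a ranking chosen after the values were seen. Cacnb2 had 7 peaks of the strongest 10% among its 11 peaks, Nav2 6 of 19, Rbm20 6 of 20 and Trib2 6 of 7. Among those with 5 each were Efna5, Emilin2, Ankrd1, Kif13a, Slc8a1 and Auts2. Slc8a1 encodes the sodium-calcium exchanger of cardiomyocytes. All 5 peaks of Emilin2 were strong. Rbm20 had 92.6 peaks per Mb of locus, against 9.07 per Mb over all protein-coding genes.

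Genes were then read in 24 lists with 538 entries. The lists and their members were chosen with earlier results of these data known, so their shares are not independent of these data. Over all protein-coding genes, 10.5% of the assigned peaks were in the strongest 10% of the list, with 0.953 such peaks per Mb of locus. The lists differ in locus size, and members can share a locus, so a count beside its background is a description.

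**Figure D5:**
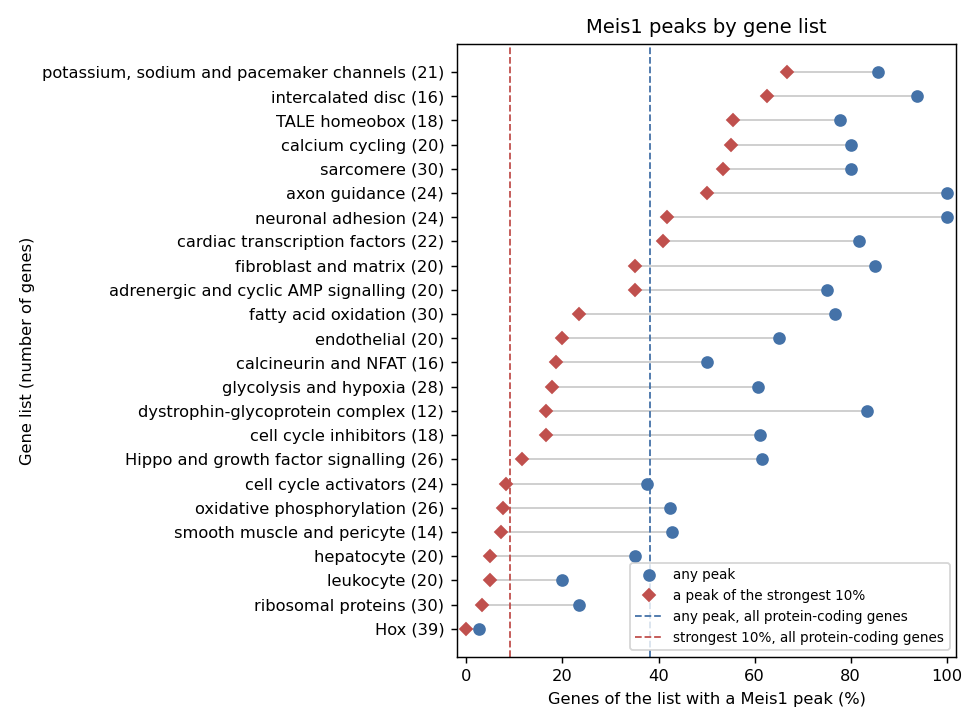
For each gene list (y axis, number of genes in brackets), the share of genes (x axis, percent) with any Meis1 peak as blue circles and with a peak of the strongest 10% as red diamonds. Dashed lines mark the same shares over all protein-coding genes (38.2% and 9.04%), and channel, intercalated disc, TALE, calcium and sarcomere genes lie farthest to the right for strong peaks.

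Sarcomere genes, which encode the contractile filaments, carried peaks that were dense and strong for their size. Of 30 genes 24 had a peak (80.0%, against 38.2% of all protein-coding genes) and 9 a promoter peak (30.0% against 8.16%). A peak within 10 kb was found at 22 (73.3% against 19.5%) and a peak of the strongest 10% at 16 (53.3% against 9.04%). The sarcomere genes held 29.5 peaks per Mb, against 9.07, and 7.92 strong peaks per Mb, against 0.953. Of their 93 peaks 26.9% were strong, against 10.5%. Their median locus was 40.3 kb, close to that of all genes. Titin, Ttn, had most peaks (11), its strongest (86.2) in an exon 32.8 kb from the start. Tmod1, which caps the thin filament, had 8 peaks in 79.2 kb, 4 of them strong, and Xirp2, an actin-binding protein, 8 with none strong. The strongest sites of the list, named after their values were seen, were those of Myl2, whose 3 peaks had strengths of 539.8, 168 and 21.1 at 6.14 and 7.81 kb upstream and 13.9 kb downstream, and the promoter peak of Tnnt2, cardiac troponin T (179, 91 bp upstream). Myh6, the adult ventricular myosin heavy chain of the mouse, had 1 peak, on its start (37.4, also named after its value was seen).

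Calcium cycling genes had the highest share of strong peaks among lists with 10 or more peaks. Of 20 genes 16 had a peak, 5 a promoter peak and 11 a strong peak. Among all protein-coding genes 38.2% had a peak, 8.16% a promoter peak and 9.04% a strong peak. Of the 95 peaks at calcium cycling genes 33.7% were strong, against 10.5% over all protein-coding genes. Their median locus was 206 kb, against 46.5 kb, and they held 13.3 peaks per Mb, against 9.07. Slc8a1 had 18 peaks, Cacnb2 11 and Ryr2, the calcium release channel, 10. The strengths at Ryr2 ran from 15.9 to 382. Its strongest peak lay 26.6 kb upstream, with another of 57.4 at 22.3 kb upstream, and the first intron held 7 peaks of which one, 2.33 kb from the start, reached 76.4. At Cacna1c the 9 peaks ran from 17.0 to 290.2, and besides the promoter peak shown above a second promoter peak of 57.3 lay 560 bp inside the gene. Jph2 had 9 peaks in a locus of 71.7 kb. Atp2a2, which encodes the calcium pump SERCA2, had 4 peaks, 3 of them strong, reaching 324 at 18.9 kb upstream (named, like Cacna1c and Jph2, after the values were seen).

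Channel and cell contact genes also often had a strong peak. Of 21 potassium, sodium and pacemaker channel genes 18 had a peak and 14 a strong one (66.7%), but 1 had a promoter peak. Their median locus was 112 kb. Over all protein-coding genes it was 46.5 kb, and 38.2% had a peak, 8.16% a promoter peak and 9.04% a strong peak. Kcnd2 had 27 peaks, Kcnj3 17 and Kcnj2 10, and the strongest of Kcnj2, an inward rectifier, reached 234 at 149 kb downstream of the start. Of 16 intercalated disc genes 15 had a peak, 10 a strong one (62.5%) and 2 a promoter peak, in loci with a median of 117 kb. N-cadherin, Cdh2, had 13 peaks with the strongest (298) in an intron 93.4 kb from the start. Gja1, the main ventricular connexin, had 11 peaks with none strong, and Ctnna3, an alpha catenin, 10 with 1 strong. Desmoplakin, Dsp, had 2 peaks, both strong, and Pkp2, a plakophilin, likewise (named after their values were seen). Among 12 genes of the dystrophin-glycoprotein complex 10 had a peak (83.3%) but 2 a strong one (16.7%), in loci with a median of 334 kb. There Sgcd had 18 peaks with none strong, Lama2 13 and Sntb1 6, in loci of 655 to 1487 kb.

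Adrenergic and cyclic AMP genes had a peak in 15 of 20 cases, a promoter peak in 7 and a strong peak in 7. Among all protein-coding genes 38.2% had a peak, 8.16% a promoter peak and 9.04% a strong peak. The median locus of the adrenergic and cyclic AMP genes was 170 kb, against 46.5 kb, and they held 15.5 peaks per Mb, against 9.07. Pde4b and Pde4d, phosphodiesterases that break down cyclic AMP, had 16 peaks each, and the receptor gene Adra1b had 12, reaching 201 in its first intron. Of 16 calcineurin and NFAT genes 8 had a peak, where all protein-coding genes gave 38.2%. Their median locus was 115 kb, against 46.5 kb. Rcan1, an inhibitor of calcineurin, had 5 peaks with the strongest (110.1) at its promoter, 225 bp upstream, and Rcan2 and Ppp3ca, a catalytic subunit, had 8 and 5.

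TALE genes, the family of Meis1 itself, were often marked at their promoters. Of 18 genes 14 had a peak (77.8%, against 38.2% of all protein-coding genes). A strong peak was found at 10 (55.6% against 9.04%) and a promoter peak at 8 (44.4% against 8.16%). Their median locus was 320 kb, against 46.5 kb, and they held 9.44 peaks per Mb, against 9.07. Meis1 had 8 peaks. Its strongest, of 97.4, lay 292 bp inside its own gene, 4 lay in its later introns with strengths of 21.4 to 44.4, and 3 lay 422 to 436 kb downstream of the start with 15.6 to 53.3. Meis2 had 8 peaks with a promoter peak of 44.5 at 73 bp upstream, and Meis3 had 1, in an intron. The Prep genes Pknox1 and Pknox2 had peaks on their starts, of 151 and 58.1. Among the Pbx genes, the partners of Meis, Pbx3 had 1 peak, at its promoter (87.6), and Pbx2 and Pbx4 had none. Tgif1 had a promoter peak of 21.2, Mkx 3 peaks outside its promoter, and Tgif2 no peak. In the Iroquois genes, Irx1 had 10 peaks (reaching 124), Irx3 8 (276, at 186 kb upstream), Irx4 4 (97.6), Irx2 and Irx6 1 each, and Irx5 none.

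The Hox genes stood at the other end. Of 39 genes 1 had a peak (2.56%, against 38.2% of all protein-coding genes), the intronic peak of Hoxa4 with a strength of 19.0. Their loci are short, with a median of 12.2 kb, against 46.5 kb, and held 1.12 peaks per Mb, against 9.07. Of 22 cardiac transcription factor genes 18 had a peak (81.8%, against 38.2% of all protein-coding genes). A promoter peak was found at 8 (36.4% against 8.16%) and a strong peak at 9 (40.9% against 9.04%). The median locus of these genes was 329 kb, against 46.5 kb. Isl1 had 14 peaks with none strong, and Tbx20 had 8, 2 of them strong, the strongest (144) at 182 kb upstream. Mef2a had a promoter peak of 235 at 204 bp upstream (named after its value was seen).

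Among cell cycle genes, peaks at promoters were found in 6 of 18 inhibitor genes (33.3%) and in 1 of 24 activator genes (4.17%), where all protein-coding genes gave 8.16%. The difference between the lists was not tested. Of the inhibitors 11 had a peak (61.1%, against 38.2% of all protein-coding genes). The Cdkn1b peak on the start, with the composite shown above, had a strength of 61.8 and rank 1810. Cdkn1a, another kinase inhibitor gene, had 1 peak at 464 bp upstream with a strength of 17.9, rank 17616, so it lay in the weaker 50% of the list. The promoter peaks of Gadd45b, Rb1 and Btg1 lay there too, as 4 of the 6 genes in all, and in the strongest 50% of the list 7 of the 18 inhibitor genes had any peak, against 28.0% of protein-coding genes. The Rb family member Rbl2 had 2 promoter peaks, the stronger at 59.6, and Rb1 had 1 at 17.0. Btg1 had a promoter peak of 16.0 and a stronger one (172) at 91.5 kb downstream, and Gadd45b a promoter peak of 17.6. Btg2, Gadd45g, Cdkn2a, Cdkn2b and Cdkn2c had peaks outside promoters, with strengths up to 31.9. Cdkn1c, Cdkn2d, Rbl1, Trp53, Gadd45a, Wee1 and Tob1 had no peak. Of the activators 9 had a peak (37.5%). Mycn had 6 peaks (reaching 131 at 35.9 kb), Myc 4 and Mki67 2, none at their promoters. The 1 promoter peak was at Cdk6, on the start, with a strength of 16.1 (named after its value was seen).

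Growth signalling genes, among them the Hippo pathway, had a peak in 16 of 26 cases (61.5%, against 38.2% of all protein-coding genes). Their median locus was 118 kb, against 46.5 kb, and they held 6.89 peaks per Mb, against 9.07. A promoter peak was found in 1 (3.85% against 8.16%) and a strong peak in 3 (11.5% against 9.04%). Erbb4, the neuregulin receptor, had 15 peaks with none strong, Insr 4 with 1 strong (67.4) and Foxo3 4 with none.

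Genes of energy metabolism more often had a peak close to their starts than all protein-coding genes, though not at every gene named here. Of 30 fatty acid oxidation genes 23 had a peak (76.7% against 38.2%), in loci with a median of 43.2 kb. A peak within 10 kb was found at 18 (60.0% against 19.5%) and a promoter peak at 9 (30.0% against 8.16%). Ppargc1a, a coactivator of mitochondrial genes, had 12 peaks, with 119 in an intron and 86.2 on the start. Ppargc1b had 8 and Acaa2 4, none of them within 10 kb of the start. In the oxidative phosphorylation list 11 of 26 genes had a peak, close to the background of 38.2%, but 9 of them had it at the promoter (34.6% of the list against 8.16%). Cox5b had the strongest (75.2, 70 bp upstream), and Cyc1 and Ndufv1 had 2 peaks each. Strong peaks were found at 2 of these 26 genes. Of 28 glycolysis and hypoxia genes 17 had a peak and 7 a promoter peak, and Pfkp had 8 peaks, Vegfa 6 and Egln3 5, of which one reached 135.

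Lists of other cell types gave a mixed picture. Of 20 fibroblast and matrix genes 17 had a peak (85.0%) and none a promoter peak, in loci with a median of 188 kb. Timp3 and Tcf21 had 6 peaks each and Col3a1 5. Of 20 endothelial genes 13 had a peak (65.0%) and 4 a strong one (20.0%), in loci with a median of 94.7 kb. Erg had 5 peaks, Emcn 4 and Egfl7 3. Of 14 smooth muscle and pericyte genes 6 had a peak, with 3 at Smtn and 2 each at Des and Mcam. Of 20 leukocyte genes 4 had a peak (20.0%), with 2 each at Ly6c2 and Adgre1 and 1 each at Cd4 and Ms4a1 (the last named after its value was seen), and both Ly6c2 peaks were strong. Of 5 defining markers each, 5 of the cardiomyocyte, 5 of the fibroblast, 5 of the endothelial, 2 of the smooth muscle and none of the leukocyte set had a peak. Over all protein-coding genes 38.2% had a peak, with a median locus of 46.5 kb. Promoter peaks were found at 2 of the cardiomyocyte markers and at none of the other sets. Strong peaks were found at 3 cardiomyocyte, 2 fibroblast and 3 endothelial markers. A peak is not a measure of expression, and the part of each cell type in these peaks was not tested. Hepatocyte genes, which the heart largely lacks, had a peak in 7 of 20 cases, near the background of 38.2%, with 2 each at Apoa1, Fgg and Apob. Ribosomal protein genes had one in 7 of 30, with 4 each at Rplp1 and Rps24 and 1 at Rps19.

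Neuronal adhesion and axon guidance genes showed how a count of genes and a count of strong peaks part. All 24 genes of each list had a peak, against 38.2% of all protein-coding genes, with a median of 27 and 10.5 peaks per gene. Of the 696 peaks at adhesion genes 3.16% were in the strongest 10%, and of the 351 at guidance genes 5.13%, against 10.5% over all genes. Per Mb the adhesion genes held 12.5 peaks and 0.396 strong peaks, where the sarcomere genes held 29.5 and 7.92. Their median locus was 2138 kb. Ncam2, Lsamp and Csmd3 had most in the first list, and Efna5, Epha7 (38) and Dcc (31) in the second. Strong single sites existed there too, such as one of 400.3 at 175 kb upstream of Ntm and one of 243 at 539 kb upstream of Dcc (Ntm was named after its value was seen).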

How the data were processed

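The submitters' processing notes name ChIPseeker, deepTools 1.6, Picard and Bowtie2 2.2.3, without their roles, and the build mm10. The peak caller, its threshold and how the authors combined the 3 libraries are not stated in those notes or in the labels. Each peak has a deposited signal value (strength), a deposited score, and an annotation class and distance per the file headers. The signal and score columns have numbers for names, and their order follows narrowPeak.

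Shares (exact binomial intervals, 95%), medians, clusters and motif matches were computed with Python 3.11.15, pandas 2.3.3 and scipy 1.17.1, and the functions were tested on simulated data. Genes were matched by Entrez number to RefSeq (GRCm38.p6), 9830 of 9840. A gene had a peak where the authors named it nearest. The members and lists were chosen with earlier results of these data known. Genes named are the 10 with most peaks, those of the 5 largest clusters, 3 members per list with most peaks, TALE and cell cycle inhibitor genes, and the strongest 5 promoter peaks and strongest peak per other class and chromosome. Others are said to be named after their values were seen. Some genes that the rule names are not reported here.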

Additional observations from a re-analysis of the deposited data

How the results depend on the processing

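Joining overlapping peaks (30508 left) moved no result. In the strongest 50% of the list (15267 peaks) the promoter share was 9.92%, the intergenic share 47.2%, the intron share 37.4%, the median distance 35.9 kb, the X density 12.9% of the autosomal one, the clustered share 6.52%, the share of protein-coding genes with a peak 28.0% and the share of peak windows with the core 48.1%. Other cluster gaps gave 3.55% of peaks (5 kb) and 27.0% (25 kb). Counting peaks within 10 kb or 100 kb gave 19.5% and 36.7% of protein-coding genes. Over the lists, 324 of 534 genes had a peak, 290 in the strongest 50%, 315 within 100 kb and 190 (35.6%) within 10 kb, a setting that moved 17 of 24 lists by over 1.5 times (the strongest 50% moved 3, namely cell cycle inhibitors, leukocyte and ribosomal protein genes). With the summit inside the window 52.5% held the core. The median promoter peak ranked at 26.8% of the list from the top, and at 25.7% among peaks of the most frequent width. Ranking by the second score kept this value and the intergenic one inside their intervals, and the intergenic one stayed there among peaks of that width. Strength and the second score had a Spearman correlation of 0.988 over peaks, so that ranking could hardly differ and the check says little. No paired analysis was possible because the list holds no value per library, and for the same reason no library could be left out. Depth is unknown.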

Other observations

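Peak width and strength went together in the Meis1 list. The width was 284 bp in 29008 peaks, whose median strength was 18.4. The other 1526 peaks were 71 to 451 bp wide with a median strength of 107, and 1519 of them were among the strongest 10% of the list, where they made up 49.8%. The step of the authors' processing that set these widths is not given in the sources used here.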
